A study of Mus musculus with 30 samples.

Results

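The lysosome's digestive enzymes and its proton pump were followed in dendritic cells with and without the transcription factor Irf4. The set held 43 genes, taken by name: 14 subunits and 2 accessory proteins of the vacuolar proton pump, 11 cathepsins and other proteases, 6 glycosidases, 4 proteins of lipid handling, 4 membrane proteins and 2 transcription factors. All 43 were among the 16358 genes with a named probe and among the 11253 that entered the tests. Each was above background in the sample channel on every array, and 0 lacked a spot.

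The cells were dendritic cells, which present antigen to T cells, grown from bone marrow of mice with C57BL/6 background. KO cells came from CD11c-Cre IRF4flox mice, in which Cre recombinase removes the flanked part of Irf4 in cells that express CD11c, and control cells from CD11c-Cre mice, so that both genotypes carried the transgene. The 6 groups were unstimulated KO, unstimulated control, KO with LPS for 6 h, control with LPS for 6 h, KO with LPS for 24 h and control with LPS for 24 h, with 5 replicates in each. LPS, or lipopolysaccharide, is the bacterial ligand of the receptor TLR4. CD11c+ cells of both genotypes were collected with beads after the treatment, before RNA was extracted. Each of the 30 arrays set the sample (Cy5) against a universal mouse reference RNA (Cy3), and a level below is the log2 ratio of sample to reference. Levels of different genes are not compared, because a ratio to the reference gives no abundance. The labels call the replicates biological without naming a mouse or a culture, so a p-value here measures only how far these samples spread.

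The vacuolar proton pump, or V-ATPase, has a cytosolic part, V1, that splits ATP and a membrane part, V0, that moves protons into the lysosome. The acid it makes activates the cathepsins and the other hydrolases, which digest proteins, sugars and lipids. In dendritic cells the pump and the cathepsins also set how antigen and the invariant chain of MHC class II are cut, and dendritic cells are known for milder lysosomal proteolysis than macrophages. Many lysosomal genes carry the CLEAR motif, which is bound by the transcription factor Tfeb and its relatives, Tfec among them.

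The promoters are shown for that motif, since it is what many genes of the set share in sequence. RefSeq promoters (mouse build GRCm38.p6, 250 bases before to 50 after the gene start) were matched for 35 of the 43 genes by symbol. The core of the motif was searched as TCACGTGA, which reads the same on both strands, and as the shorter CACGTG, which every TCACGTGA also holds. TCACGTGA was present for 7 of the 35 genes (20%), against 304 of 27025 genes with a promoter in the table (1.12%). CACGTG was present for 12 of the 35 (34.3%), against 8.09% of all genes. The 9 occurrences of TCACGTGA lay in the promoters of Ctsa, Ctsd, Mcoln1, Atp6v0d1, Atp6v1a, Atp6v0e and Gla and are written below with 10 bases on each side, 5′ to 3′ on the gene's strand, the motif in capitals.
Ctsa, first site (chr2:164833750-164833777, plus strand): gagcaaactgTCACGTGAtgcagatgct
Ctsa, other site (chr2:164833767-164833794, plus strand): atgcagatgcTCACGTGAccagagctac
Ctsd (chr7:142387909-142387936, minus strand): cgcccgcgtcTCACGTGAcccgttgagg
Mcoln1 (chr8:3500463-3500490, plus strand): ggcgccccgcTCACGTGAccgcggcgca
Atp6v0d1 (chr8:105566051-105566078, minus strand): cctactgcggTCACGTGAgacgcggtgc
Atp6v1a (chr16:44139374-44139401, minus strand): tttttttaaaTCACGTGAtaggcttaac
Atp6v0e (chr17:26676388-26676415, plus strand): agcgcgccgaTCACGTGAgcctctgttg
Gla, first site (chrX:134601216-134601243, minus strand): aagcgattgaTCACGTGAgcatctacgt
Gla, other site (chrX:134601183-134601210, minus strand): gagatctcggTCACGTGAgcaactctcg

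Atp6v1a and Atp6v0e are the 2 genes of these 7 whose levels are given array by array below, and they were called in opposite directions between KO and control cells, Atp6v1a without LPS and Atp6v0e at 6 h, so their whole promoters are shown with the motif in capitals. The Atp6v1a promoter lies at chr16:44139210-44139509 on the minus strand and that of Atp6v0e at chr17:26676146-26676445 on the plus strand.
Atp6v1a: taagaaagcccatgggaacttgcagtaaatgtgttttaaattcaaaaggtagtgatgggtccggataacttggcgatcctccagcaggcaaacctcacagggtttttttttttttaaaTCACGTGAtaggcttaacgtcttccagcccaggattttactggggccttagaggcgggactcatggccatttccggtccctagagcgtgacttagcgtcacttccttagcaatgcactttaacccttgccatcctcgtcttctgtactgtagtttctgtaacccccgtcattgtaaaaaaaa
Atp6v0e: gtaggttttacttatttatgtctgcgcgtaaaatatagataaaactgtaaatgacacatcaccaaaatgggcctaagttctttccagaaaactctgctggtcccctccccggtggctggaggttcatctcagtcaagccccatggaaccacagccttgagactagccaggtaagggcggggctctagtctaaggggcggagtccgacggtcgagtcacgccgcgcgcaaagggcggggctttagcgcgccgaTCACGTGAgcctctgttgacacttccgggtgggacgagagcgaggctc
A match is a description of the letters and was not tested as a binding site. The KO minus control log2 difference in unstimulated cells had a median of 0.82 (-0.19 to 1.53) over the 7 genes with TCACGTGA and of 0.36 (-0.85 to 1.80) over the 28 without it, ranges in brackets. At 6 h of LPS these medians were 0.30 (-0.28 to 1.37) with the motif and 0.30 (-0.95 to 2.15) without it, and at 24 h 0.71 (-0.22 to 1.36) with the motif and 0.47 (-1.27 to 2.18) without it. The ranges overlapped at each time.

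4 features of the arrays bear on the values. Irf4 itself was reduced in KO cells, 7.48-fold in unstimulated cells, 5.34-fold at 6 h and 4.50-fold at 24 h (limma, adjusted p at most 2.69e-06). The sources used here do not place its probe inside or outside the deleted part. Replicate 3 of control cells at 6 h of LPS and replicate 2 of control cells at 24 h were on the same slide, which was scanned on a later day, and each lay nearest unstimulated control replicate 1 over all genes, whereas each of the other 28 arrays lay nearest an array of its own group. Replicates 4 and 5 differed from replicates 1 to 3 in most of the hydrolases, with values given after the classes. No slide of the 9 carried KO and control arrays of the same treatment, so within a treatment slide and genotype cannot be told apart. Nor did any slide carry unstimulated and LPS 24 h arrays of the same genotype. Within a genotype, slide and LPS for 24 h therefore cannot be told apart either. The median Cy5 signal was 100 to 150 per array, 44.8 to 66.1% of 41174 probes were above background, and the number of arrays limits the precision.

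Most genes of the set had a higher mean level in KO than in control cells at each treatment. With no block for replicate number in the fit, those called were mainly subunits of the proton pump. Calls were made at an adjusted p below 0.05 (limma over all 30 arrays, Benjamini-Hochberg over the 11253 genes). In unstimulated cells 8 of the 43 genes were called higher in KO and 0 lower, where 6.96% of all genes tested were called higher and 7.13% lower. With LPS for 6 h 5 were called higher and 1 lower, against 6.22% higher and 5.87% lower of all genes. At 24 h 10 were called higher and 0 lower, against 6.98% higher and 8.44% lower of all genes. The median log2 difference over the 43 genes was 0.43 in unstimulated cells, 0.31 at 6 h and 0.51 at 24 h, while the median over all genes tested was -0.038, -0.012 and -0.0054. The difference was above 0 for 38, 33 and 37 of the 43 genes at 0, 6 and 24 h, called or not.

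Over the 3 treatments, 17 of the 23 rises called in KO cells were of pump genes, which make up 16 of the 43. The median SD within a group was 0.24 in these 16 and 0.65 in the other 27, so a difference of the same size passed the test more readily in a pump gene. With the replicate number as a block, 54 rises were called in KO cells over the 3 treatments, 25 of them of pump genes. Without that block, Atp6v1g1, Atp6v1h, Atp6v0d2 and Ctsl were called higher at all 3 treatments. In bulk RNA, a different share of cells of a type and a different RNA level per cell cannot be told apart. With the slide as a random block 6, 5 and 9 of the 43 genes were called at 0, 6 and 24 h in place of 8, 6 and 10. Without the pair of arrays of the later slide 11, 7 and 10 were called, and 52 of the 53 calls over all comparisons were kept, that of Atp6v1c1 for KO at 24 h excepted. With the slide as a fixed block, which sets the genotypes against each other through other treatments, the median over the 43 genes was 1.59, 1.14 and -1.06 at 0, 6 and 24 h. Of the 53 calls, 19 were of genes with a second probe, and none of these had probes of opposite sign, although the probes of Atp6v1g1 differed in size.

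**Figure D1:**
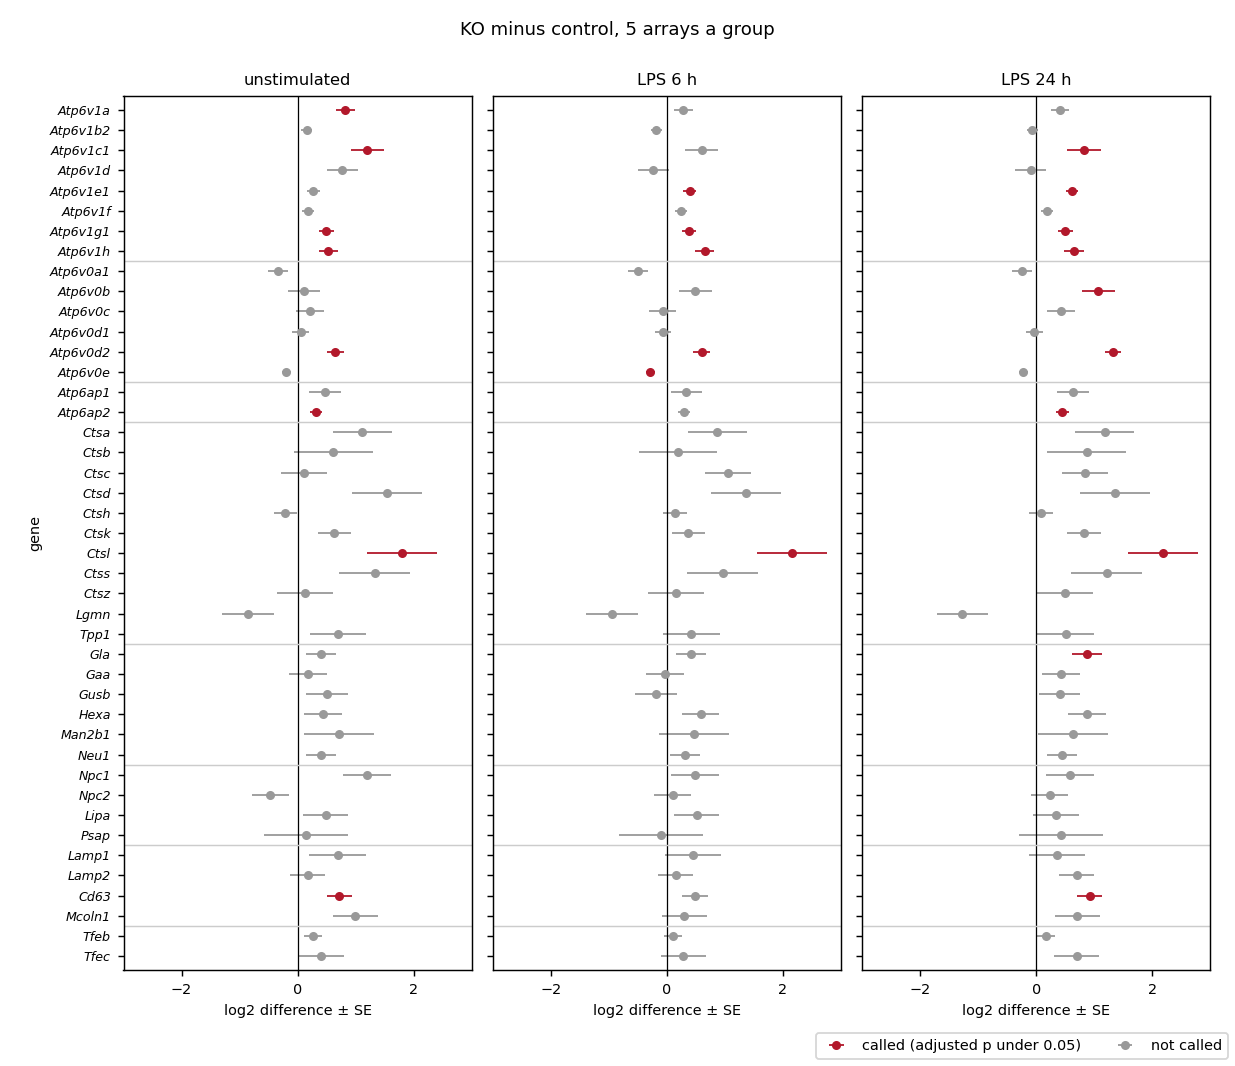
KO minus control log2 differences (x axis, points, with SE as bars) of the 43 genes in class order (y axis) in unstimulated cells, at 6 h and at 24 h of LPS, 5 arrays a group. Red marks calls: 8 higher in unstimulated cells, 5 higher and 1 lower at 6 h, 10 higher at 24 h; Psap and Ctsb have the widest bars.

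Some cell type markers differed between the genotypes as well. Of all genes tested, 6.96%, 6.22% and 6.98% were called higher in KO cells at 0, 6 and 24 h, and 7.13%, 5.87% and 8.44% lower. The macrophage count at 6 h below, 1 of 13 higher, is near that share. Of 8 dendritic cell markers tested, 6 were lower in KO cells without LPS, 4 at 6 h and 3 at 24 h, and their mean log2 ratio per array was 1.20 to 2.50 in KO and 3.19 to 3.49 in control cells without LPS. Those called were Dpp4, Ciita and Cd74 at each treatment, with H2-Aa at 0 and 6 h and Ccr7 and H2-Eb1 at 0 h. Ciita, Cd74, H2-Aa and H2-Eb1 belong to the MHC class II pathway. Itgax and Zbtb46 were not called between the genotypes at any treatment. Of 13 macrophage markers 3, 1 and 2 were higher at 0, 6 and 24 h, and 0 lower, with means of 2.48 to 3.61 in KO and 1.74 to 3.09 in control cells without LPS, which overlapped. At 6 h the macrophage means were 2.52 to 3.72 in KO and 1.69 to 3.44 in control cells, and at 24 h 1.95 to 3.26 in KO and 1.37 to 2.93 in control cells. Of 8 osteoclast markers 3 were lower at each treatment and 1, Acp5, higher at 24 h, with means of 1.38 to 1.69 in KO and 1.99 to 2.24 in control cells without LPS. Of 8 neutrophil markers 1, 3 and 4 were lower at 0, 6 and 24 h, with means of 0.47 to 1.70 in KO and 1.30 to 2.81 in control cells without LPS. Among those called, Ltf, Ngp and Cxcr2 were above background on 19, 15 and 16 of the 30 arrays. They passed the filter through only some groups, and signal near background limits what their calls show. The dendritic cell markers Flt3 and Cd209a did not pass the filter, being above background on 14 and 3 of the 30 arrays. The neutrophil gene Elane was above background on 0 arrays and the osteoclast gene Calcr on 4. Of 4 tested markers of mast cells, basophils and eosinophils 1, 2 and 2 were lower at 0, 6 and 24 h, and of 6 of B, T, NK and plasmacytoid cells 0 were called. Prg2, an eosinophil marker called at 6 and 24 h, was above background on 16 of the 30 arrays. The part of these cell types in the lysosomal differences was not tested.

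With LPS, the set had fewer calls higher than lower in KO cells at 6 h and in control cells at 24 h, and nearly as many higher as lower in the other comparisons. In KO cells at 6 h, 2 of the 43 genes were called higher with LPS than without and 7 lower, where 14.2% of all genes were called higher and 12.4% lower. At 24 h 4 were called higher and 5 lower in KO cells, against 10.2% higher and 7.84% lower of all genes, shares near those of the set. In control cells at 6 h 2 were called higher and 2 lower (7.15% and 4.51% of all genes), and at 24 h 1 higher and 6 lower (7.23% and 5.07% of all genes). The median log2 difference of the 43 genes was -0.44 in KO cells and -0.22 in control cells at 6 h, and -0.41 in KO cells and -0.33 in control cells at 24 h. Both times share the unstimulated arrays of their genotype, which also enter the comparison of genotypes.

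2 slides held LPS 6 h and unstimulated arrays of 1 genotype. Within the KO slide (1 LPS array, 3 unstimulated) the median log2 difference of the 43 genes was -0.090 and 28 were lower. Within the control slide (2 LPS arrays, 2 unstimulated) the median was 0.30 and 10 were lower, and its LPS arrays were replicates 1 and 2, its unstimulated arrays replicates 4 and 5. With the later slide left out, 7 genes in place of 4 were called for LPS at 6 h in control cells and 10 in place of 7 at 24 h.

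The difference between the LPS responses, KO minus control, was called for 0 of the 43 genes at 6 h (0.293% of all genes called higher, 0.142% lower) and for 0 at 24 h (0.427% higher, 0.453% lower). At an unadjusted p under 0.05, 0 genes were higher and 3 lower at 6 h, and 3 higher and 1 lower at 24 h. Without the arrays of the later slide Atp6v1a was called at both times: the KO minus control difference of its responses was -0.57 at 6 h (adjusted p = 0.0413) and -0.64 at 24 h (adjusted p = 0.0141), on the log2 scale. With all 30 arrays and no block in the fit, an LPS change called in 1 genotype and not in the other is therefore not shown to differ between them. Other alternatives also gave calls for the difference at 24 h. These were 1 gene with only the compared arrays in the fit, up to 1 in fits that left out 1 array, and 27 with the slide as a fixed block. The block for replicate number gave calls at 24 h as well.

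**Figure D2:**
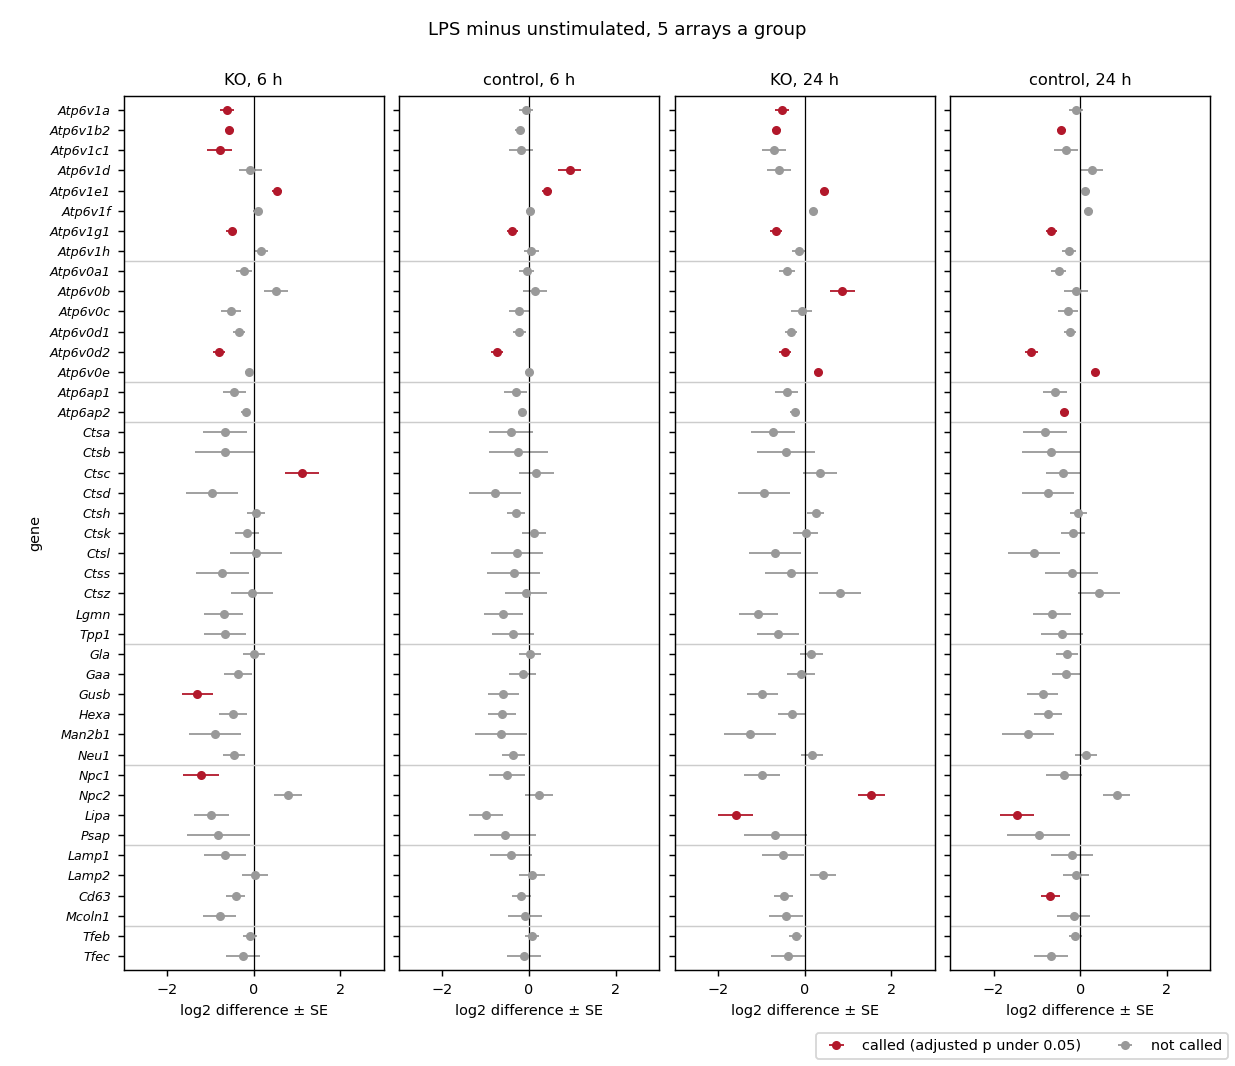
LPS minus unstimulated log2 differences (x axis, points, with SE as bars) of the 43 genes (y axis) in KO and control cells at 6 h and at 24 h, 5 arrays a group, calls in red. More points lie left of 0 than right of it in each panel, with Npc2 to the right and Lipa to the left at 24 h.

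The V1 part of the pump held 8 of the genes. In KO cells 4, 3 and 4 of them were called higher than in control cells at 0, 6 and 24 h, and 0 lower, with a median log2 difference of 0.51, 0.33 and 0.45. Of all genes tested, 6.96%, 6.22% and 6.98% were called higher. The catalytic A subunit, Atp6v1a, had levels of 2.43, 2.38, 2.27, 2.37 and 2.24 on the unstimulated KO arrays and 1.52, 1.68, 1.52, 1.51 and 1.35 on the control arrays. At 6 h of LPS it had 1.84, 1.60, 1.64, 1.56 and 2.00 in KO and 1.49, 1.49, 1.31, 1.45 and 1.47 in control cells. At 24 h it had 2.00, 1.99, 1.82, 1.53 and 1.75 in KO and 1.74, 0.49, 1.76, 1.47 and 1.59 in control cells. The KO arrays lay above all control arrays at 0 and 6 h and overlapped them at 24 h, where control replicate 2, on the later slide, was far below the rest. The KO minus control log2 difference was called in unstimulated cells (0.82 ± 0.16 SE, adjusted p = 0.000689, 1.77-fold), and was 0.28 at 6 h and 0.41 at 24 h (adjusted p = 0.278 and 0.0864). With LPS, Atp6v1a fell in KO cells, with log2 differences of -0.61 ± 0.16 at 6 h and -0.52 ± 0.16 at 24 h, the call at 24 h being lost without KO unstimulated replicate 1 or KO LPS 24 h replicate 4 (adjusted p up to 0.0745). In control cells its LPS differences were -0.074 and -0.11, not called.

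The C subunit, Atp6v1c1, sits where V1 and V0 join and takes part in their assembly. Its levels were 2.22, 2.02, 2.10, 2.12 and 2.58 in unstimulated KO cells and 0.88, 0.75, 0.66, 1.09 and 1.68 in unstimulated control cells. At 6 h they were 1.22, 0.83, 0.87, 1.96 and 2.28 in KO and 0.35, 0.24, 1.14, 0.91 and 1.52 in control cells, and at 24 h 1.43, 1.06, 1.07, 1.96 and 2.01 in KO and 0.62, 0.23, 0.37, 1.00 and 1.18 in control cells. Without LPS every KO array lay above every control array, whereas with LPS the groups overlapped and replicates 4 and 5 were the highest in KO cells at both times. The KO difference was 1.20 ± 0.28 in unstimulated cells (log2, ± SE, adjusted p = 0.00467, 2.29-fold), and it turned to -1.03 with the slide as a fixed block. At 24 h it was 0.82 ± 0.28 (adjusted p = 0.0489), not called without the later slide (0.71, adjusted p = 0.126) and lost in 6 of 10 fits that left out 1 array (adjusted p up to 0.137). Atp6v1c1 was lower with LPS in KO cells at 6 h (-0.78 ± 0.28, adjusted p = 0.0426), a call lost in 8 of 10 such fits.

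The H subunit, Atp6v1h, regulates ATP splitting by V1. Its levels were 1.84, 1.12, 1.26, 1.21 and 1.89 in unstimulated KO cells and 0.84, 0.93, 0.87, 1.08 and 0.95 in control cells. At 6 h they were 1.60, 1.41, 1.55, 1.66 and 1.98 in KO and 1.18, 1.18, 0.57, 1.03 and 1.01 in control cells. At 24 h they were 1.42, 1.26, 1.27, 1.17 and 1.50 in KO and 0.86, 0.017, 0.87, 0.79 and 0.83 in control cells. All KO arrays lay above all control arrays at each treatment, the lowest control arrays with LPS being the pair of the later slide. The log2 differences were 0.53 ± 0.16, 0.65 ± 0.16 and 0.65 ± 0.16 at 0, 6 and 24 h (adjusted p = 0.0302, 0.00891 and 0.00678), and without the later slide 0.54 at 6 h and 0.49 at 24 h. The call in unstimulated cells was lost without KO replicate 1 or 5 or control replicate 1, 3 or 5 (adjusted p up to 0.113). Its LPS differences were not called, at 0.18 and -0.14 in KO and 0.054 and -0.26 in control cells at 6 and 24 h.

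Atp6v1e1 and Atp6v1g1 encode the E and G subunits, which form the outer stalks of the pump. Atp6v1e1 had levels of 1.53, 1.74, 1.81, 1.62 and 1.65 in unstimulated KO and 1.34, 1.20, 1.22, 1.64 and 1.62 in unstimulated control cells. At 6 h of LPS it had 2.12, 2.20, 2.16, 2.29 and 2.30 in KO and 1.85, 1.93, 1.56, 1.84 and 1.90 in control cells, and at 24 h 2.16, 2.17, 2.09, 2.08 and 2.11 in KO and 1.57, 1.05, 1.62, 1.53 and 1.76 in control cells. Genotypes overlapped without LPS and separated with it, all KO arrays above all control arrays at 6 and 24 h. The KO difference was 0.40 ± 0.11 at 6 h (adjusted p = 0.0183; 0.0518 without control LPS 6 h replicate 3) and 0.62 ± 0.11 at 24 h (adjusted p = 0.000315), and 0.33 and 0.50 without both arrays of the later slide. Atp6v1e1 was higher with LPS in KO cells, by 0.54 ± 0.11 at 6 h and 0.45 ± 0.11 at 24 h. In control cells it was higher by 0.41 ± 0.11 at 6 h, a call lost without control unstimulated replicate 2 (adjusted p = 0.0526). At 24 h the control difference was 0.10, not called.

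Atp6v1g1 was called lower with LPS in both genotypes and higher in KO cells at each treatment by the brighter of its 2 probes, but the dimmer one differed. The levels of the brighter probe were 1.45, 1.12, 1.16, 1.27 and 1.58 in unstimulated KO and 0.82, 0.83, 0.72, 0.78 and 0.99 in unstimulated control cells. At 6 h they were 0.80, 0.59, 0.60, 0.86 and 1.25 in KO and 0.36, 0.34, 0.99, 0.24 and 0.27 in control cells, and at 24 h 0.70, 0.68, 0.66, 0.50 and 0.75 in KO and 0.18, 0.17, 0.14, 0.10 and 0.21 in control cells. At 0 and 24 h the KO arrays lay above all control arrays, and at 6 h control replicate 3 of the later slide lay within the KO range. KO cells differed from control cells by 0.49 ± 0.13, 0.38 ± 0.13 and 0.50 ± 0.13 at 0, 6 and 24 h (adjusted p = 0.00898, 0.0495 and 0.00746), that at 6 h being lost in 7 of 10 fits without 1 array and 0.52 without the later slide. Its fall with LPS was -0.50 and -0.66 in KO cells and -0.39 and -0.67 in control cells at 6 and 24 h, the control call at 6 h being lost in 9 of 10 fits. The dimmer probe gave LPS differences of -0.11 and -0.082 in KO cells and -0.0095 and -0.15 in control cells at 6 and 24 h, so the LPS change of Atp6v1g1 rests on 1 probe. Its KO minus control differences were 0.27, 0.17 and 0.34 at 0, 6 and 24 h, smaller than those of the brighter probe. With each array centred on its median in place of loess, Atp6v1g1 kept these directions and none of its 7 calls.

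The B subunit, Atp6v1b2, which binds nucleotide next to the A subunit, was called for LPS and not for genotype. Its levels were 2.44, 2.55, 2.53, 2.49 and 2.17 in KO and 2.33, 2.15, 2.22, 2.53 and 2.19 in control cells without LPS. They were 1.93, 1.84, 1.95, 1.83 and 1.85 in KO and 2.06, 2.05, 2.15, 2.13 and 1.93 in control cells at 6 h, and 1.84, 1.93, 1.84, 1.50 and 1.81 in KO and 1.79, 1.58, 1.78, 2.00 and 2.06 in control cells at 24 h. In KO cells all LPS arrays of both times lay below the unstimulated ones, and in control cells all arrays of 24 h did. The LPS difference was -0.55 ± 0.10 and -0.65 ± 0.10 in KO cells at 6 and 24 h (adjusted p = 0.000151 and 4.09e-05) and -0.44 ± 0.10 in control cells at 24 h (adjusted p = 0.00492). The KO minus control difference was 0.15, -0.18 and -0.063 at 0, 6 and 24 h, not called.

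The D subunit, Atp6v1d, is part of the turning central stalk. Its levels were 1.75, 1.40, 1.32, 1.17 and 1.80 in KO and 0.85, 0.98, 0.94, 0.48 and 0.34 in control cells without LPS, and 1.72, 1.59, 1.77, 0.74 and 1.26 in KO and 2.27, 2.49, 1.17, 1.30 and 1.04 in control cells at 6 h. In control cells every LPS 6 h array lay above every unstimulated array, with replicates 1 and 2 far above the other 3. The LPS difference in control cells was 0.93 ± 0.27 at 6 h (adjusted p = 0.021), lost without control unstimulated replicate 5 or control LPS 6 h replicate 1 or 2 (adjusted p up to 0.0995), while in KO cells it was -0.07, not called. Without LPS every KO array lay above every control array, with a difference of 0.77 ± 0.27 that missed the threshold (adjusted p = 0.053; 0.0416 without the later slide). Levels at 24 h ran over 0.43 to 1.15 in KO and 0.45 to 1.58 in control cells and no other difference of it was called. Atp6v1f, the other subunit of the central stalk in the set, was not called in any comparison of the main fit.

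The V0 part held 6 genes, whose median KO difference was 0.08, -0.071 and 0.20 at 0, 6 and 24 h. The d subunit links the membrane ring to the central stalk and has a pair of forms, Atp6v0d1, found in most cells, and Atp6v0d2, known from osteoclasts and macrophages. Atp6v0d2 had levels of 4.01, 4.21, 4.24, 4.47 and 4.45 in unstimulated KO and 3.66, 3.74, 3.64, 3.51 and 3.60 in unstimulated control cells. At 6 h of LPS it had 3.60, 3.36, 3.20, 3.45 and 3.80 in KO and 2.79, 2.55, 3.48, 2.66 and 2.94 in control cells. At 24 h it had 3.87, 3.86, 3.63, 3.66 and 4.07 in KO and 2.74, 2.32, 2.48, 2.32 and 2.64 in control cells. KO arrays were all above control arrays without LPS and at 24 h, and at 6 h control replicate 3, on the later slide, stood at the level of the KO arrays. The KO difference was 0.65 ± 0.14, 0.60 ± 0.14 and 1.32 ± 0.14 at 0, 6 and 24 h (adjusted p = 0.00253, 0.00557 and 6.07e-07), the last being 2.50-fold. Without the later slide the values were 0.75 at 6 h and 1.28 at 24 h.

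Atp6v0d2 was lower with LPS in all 4 comparisons with unstimulated cells, of which those at 24 h cannot be told apart from slide. The difference was -0.79 ± 0.14 at 6 h and -0.46 ± 0.14 at 24 h in KO cells (adjusted p = 0.000158 and 0.0266), and -0.74 ± 0.14 at 6 h and -1.13 ± 0.14 at 24 h in control cells (adjusted p = 0.00143 and 2.32e-05). The KO call at 24 h was lost without KO unstimulated replicate 4 or 5 or KO LPS 24 h replicate 3 or 4 (adjusted p up to 0.0718), and the value turned to 0.33 with the slide as a fixed block. The difference of the 24 h responses, KO minus control, was 0.67 ± 0.20 (adjusted p = 0.119), not called. Atp6v0d1 had differences of 0.051, -0.067 and -0.028 between KO and control cells at 0, 6 and 24 h, and neither these nor its LPS differences were called.

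Atp6v0b and Atp6v0c encode proteolipids of the proton-carrying ring. Without LPS Atp6v0b had levels of -0.045, 0.0028, -0.033, 0.24 and 0.68 in KO and -0.054, -0.37, -0.45, 0.31 and 0.87 in control cells. At 6 h it had 0.23, 0.23, 0.19, 1.49 and 1.28 in KO and 0.023, -0.075, 0.18, 0.39 and 0.45 in control cells, and at 24 h 0.62, 0.73, 0.74, 1.58 and 1.52 in KO and 0.024, -0.81, -0.008, 0.24 and 0.38 in control cells. At 24 h all KO arrays lay above all control arrays, and in each of the 6 groups replicates 4 and 5 were both above the other 3. The KO difference at 24 h was 1.07 ± 0.28 (adjusted p = 0.00951, 2.10-fold; 0.88 without the later slide), and the LPS difference in KO cells at 24 h 0.87 ± 0.28 (adjusted p = 0.0328), the LPS call being lost in 5 of 10 fits without 1 array. Atp6v0c was not called in any comparison of the main fit.

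The small e subunit, Atp6v0e, was called lower in KO than in control cells. It was the only such gene of the set in the main fit, with all 30 arrays and no block. Its levels were 1.59, 1.60, 1.65, 1.68 and 1.73 in KO and 1.84, 1.88, 1.89, 1.91 and 1.69 in control cells without LPS. At 6 h they were 1.61, 1.56, 1.49, 1.47 and 1.60 in KO and 1.89, 2.02, 1.71, 1.85 and 1.67 in control cells, and at 24 h 1.95, 1.91, 1.86, 1.99 and 2.06 in KO and 2.33, 2.12, 2.30, 1.96 and 2.17 in control cells. At 6 h each KO array was below each control array, while at 0 and 24 h the groups overlapped. The KO difference at 6 h was -0.28 ± 0.081 (adjusted p = 0.0203), lost without KO replicate 3 or control replicate 2 (adjusted p up to 0.0599), and -0.19 and -0.22 at 0 and 24 h, not called. At 24 h Atp6v0e was higher with LPS by 0.30 ± 0.081 in KO and 0.33 ± 0.081 in control cells (adjusted p = 0.00976 and 0.00802). The LPS difference in KO cells was -0.028 with the Cy5 signal alone and -0.048 with the slide as a fixed block. The a subunit, Atp6v0a1, which shapes the proton path through the membrane, was not called in any comparison of the main fit.

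Of the accessory proteins, Atp6ap2, also known as the prorenin receptor, was called and Atp6ap1, a factor of pump assembly, was not. Atp6ap2 was higher in KO cells by 0.31 ± 0.10 without LPS (adjusted p = 0.0473) and by 0.45 ± 0.10 at 24 h (adjusted p = 0.00335; 0.33 without the later slide). The call without LPS was lost in each of 10 fits that left out 1 array (adjusted p up to 0.102), and the value was -0.057 with the slide as a fixed block. In control cells it fell at 24 h of LPS, with a log2 difference of -0.37 (adjusted p = 0.0179), or -0.25 without the later slide.

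**Figure D3:**
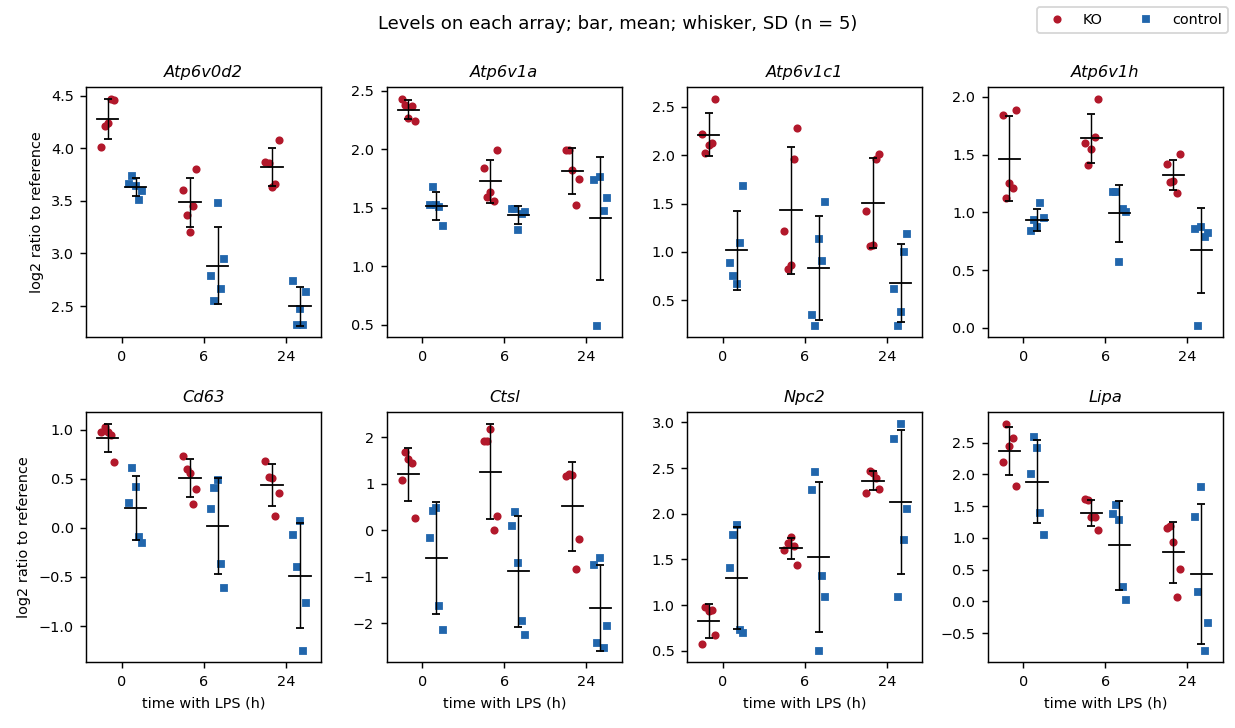
Levels (log2 ratio of sample to reference, y axis) of 8 genes on each array by time with LPS (x axis), KO as circles left of control as squares, with the mean as a bar and the SD as a whisker (n = 5). Atp6v0d2 in KO cells lies above control cells at 0 and 24 h, and Ctsl spreads over more than 2 log2 units in 4 of the 6 groups.

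Among the membrane proteins, the tetraspanin Cd63, found in late endosomes and lysosomes, was called. Its levels were 0.98, 1.02, 0.97, 0.94 and 0.67 in unstimulated KO and 0.25, 0.61, 0.41, -0.094 and -0.15 in unstimulated control cells. At 6 h they were 0.73, 0.60, 0.56, 0.24 and 0.40 in KO and 0.20, 0.41, 0.48, -0.36 and -0.61 in control cells, and at 24 h 0.68, 0.52, 0.51, 0.12 and 0.36 in KO and -0.071, -0.40, 0.066, -1.26 and -0.77 in control cells. KO arrays lay above all control arrays at 0 and 24 h, and replicates 4 and 5 were the lowest control arrays at each treatment. The KO difference was 0.71 ± 0.22 without LPS (adjusted p = 0.0252; lost without KO replicate 1 or 2 or control replicate 4 or 5), 0.48 at 6 h (adjusted p = 0.152, not called) and 0.92 ± 0.22 at 24 h (adjusted p = 0.00377; 0.94 without the later slide). Cd63 was lower with LPS in control cells at 24 h (-0.69), a call lost in 5 of 10 fits without 1 array. With the slide as a fixed block the KO difference at 24 h turned to -0.46 and the LPS difference in control cells to 0.40. Lamp1 and Lamp2, the main glycoproteins of the lysosomal membrane, and the cation channel Mcoln1 were not called in any comparison of the main fit. The range of KO differences over the 4 membrane genes was 0.17 to 0.99, 0.15 to 0.48 and 0.36 to 0.92 at 0, 6 and 24 h. The lowest value at 0 h was that of Lamp2, whose other probe gave -0.14 there.

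Of the 11 proteases, 9, 10 and 10 were above 0 in KO minus control at 0, 6 and 24 h, but in the main fit 1 was called each time, Ctsl. As a count, 1 of 11 is near the 6.96%, 6.22% and 6.98% of all genes called higher. Ctsl encodes cathepsin L, a cysteine protease that cuts the invariant chain in thymic epithelium. It is given array by array although its groups overlapped, a choice made after its values were seen. Its levels were 1.08, 1.68, 1.53, 1.43 and 0.25 in unstimulated KO and -0.17, 0.42, 0.47, -1.62 and -2.14 in unstimulated control cells. At 6 h they were 1.91, 1.92, 2.17, -0.0042 and 0.30 in KO and 0.099, 0.40, -0.72, -1.96 and -2.26 in control cells, and at 24 h 1.17, 1.20, 1.19, -0.84 and -0.19 in KO and -0.75, -2.42, -0.61, -2.53 and -2.06 in control cells. In each of the 6 groups replicates 4 and 5 averaged below replicates 1 to 3, and within either set of replicates the KO mean was above the control mean at each treatment. The KO difference was 1.80 ± 0.60, 2.15 ± 0.60 and 2.18 ± 0.60 at 0, 6 and 24 h (3.49-, 4.43- and 4.54-fold; adjusted p = 0.0446, 0.0185 and 0.0131). The call was lost in 7, 5 and 0 of 10 fits without 1 array, and without the later slide the values were 2.19 at 6 h and 2.00 at 24 h. With the slide as a fixed block the value at 24 h turned to -2.74. Its LPS differences were not called.

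The other proteases gave large differences with a large spread. Values named here were chosen after they were seen. The aspartic protease Ctsd had KO differences of 1.53 ± 0.60, 1.37 ± 0.60 and 1.36 ± 0.60 at 0, 6 and 24 h (± SE, adjusted p = 0.0889, 0.144 and 0.136), and a dimmer probe of it gave 0.57 without LPS. Ctss, the cysteine protease that trims the invariant chain in dendritic cells, had 1.33 ± 0.61, 0.97 ± 0.61 and 1.21 ± 0.61 (adjusted p = 0.156, 0.349 and 0.201). Lgmn, the asparagine-specific protease legumain, had differences below 0, of -0.85 ± 0.44, -0.95 ± 0.44 and -1.27 ± 0.44 (adjusted p = 0.217, 0.178 and 0.0523), and without the later slide it was called lower in KO cells at 24 h (-1.43, adjusted p = 0.0424). None of these passed the test in the full set of arrays with no block in the fit. Ctsa, Ctsb, Ctsh, Ctsk, Ctsz and the tripeptidase Tpp1 were not called in any comparison of that fit.

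Ctsc encodes dipeptidyl peptidase 1, which activates granule proteases, and was the one protease called for LPS. Its levels in KO cells were 5.74, 5.81, 5.91, 4.85 and 4.68 at 6 h of LPS and 4.03, 4.43, 4.42, 4.38 and 4.08 without LPS. In control cells they were 5.07, 5.26, 4.46, 3.39 and 3.50 at 6 h and 4.27, 4.45, 4.42, 3.93 and 3.78 without LPS. In KO cells each LPS array lay above each unstimulated array, with replicates 1 to 3 far above 4 and 5; in control cells the groups overlapped. The LPS difference was 1.13 ± 0.40 in KO cells (adjusted p = 0.035), a call lost in 6 of 10 fits without 1 array, and 0.17 in control cells, not called. The difference between the responses was 0.96 ± 0.56 (adjusted p = 0.746).

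The 6 glycosidases had a median KO difference of 0.42, 0.36 and 0.54 at 0, 6 and 24 h. Gla, alpha-galactosidase A, was called higher in KO cells at 24 h (0.87 ± 0.26, adjusted p = 0.0206), but its level in control cells ran over -0.23 to 2.07, and without control LPS 24 h replicate 2 the difference was 0.50 (adjusted p = 0.0553). Gusb, beta-glucuronidase, had levels of -0.16, -0.66, -0.64, -1.78 and -0.68 in KO cells at 6 h of LPS and 1.04, 0.31, 0.42, 0.18 and 0.60 without LPS. In control cells it had -0.55, -0.36, 0.64, -1.17 and -1.55 at 6 h and 0.16, 0.50, 0.38, -0.31 and -0.73 without LPS. In KO cells all LPS arrays lay below all unstimulated arrays, whereas control replicate 3 of the later slide was the highest control array. The LPS difference at 6 h was -1.29 ± 0.36 in KO cells (adjusted p = 0.00795) and -0.60 ± 0.36 in control cells (adjusted p = 0.325). Without the later slide the control value was -0.91 and called (adjusted p = 0.0481). The glucosidase Gaa, the hexosaminidase subunit Hexa, the mannosidase Man2b1 and the sialidase Neu1 were not called in any comparison of the main fit. The probes of Neu1 differed in sign for KO minus control without LPS.

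Of the lipid genes, Npc2 and Lipa moved in opposite directions with LPS. Npc2 binds cholesterol in the lysosome and hands it to the membrane protein Npc1. Its levels in KO cells were 0.57, 0.98, 0.94, 0.94 and 0.67 without LPS, 1.61, 1.68, 1.75, 1.65 and 1.44 at 6 h and 2.23, 2.47, 2.45, 2.39 and 2.27 at 24 h. In control cells they were 1.41, 1.77, 1.87, 0.73 and 0.70 without LPS, 2.26, 2.46, 0.50, 1.31 and 1.09 at 6 h and 2.82, 1.09, 2.98, 1.71 and 2.06 at 24 h. The KO arrays of the 3 times did not overlap and went up with time, while the control arrays overlapped, with both arrays of the later slide the lowest of their groups. The LPS difference at 24 h was 1.54 ± 0.32 in KO cells (adjusted p = 0.00111, 2.91-fold) and 0.84 ± 0.32 in control cells (adjusted p = 0.0865). Without the later slide the control value was 1.10 and called (adjusted p = 0.00537). With the slide as a fixed block the KO value turned to -1.24 (adjusted p = 0.0316).

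Lipa, the lysosomal acid lipase that splits cholesterol esters, had levels in KO cells of 2.20, 2.80, 2.45, 2.58 and 1.82 without LPS, 1.61, 1.60, 1.32, 1.33 and 1.13 at 6 h and 1.16, 1.19, 0.94, 0.069 and 0.51 at 24 h. In control cells it had 2.00, 2.59, 2.41, 1.39 and 1.05 without LPS, 1.38, 1.52, 1.28, 0.23 and 0.025 at 6 h and 1.34, 0.15, 1.80, -0.78 and -0.34 at 24 h. KO arrays with LPS lay below all KO arrays without it at both times, and in control cells the groups overlapped, replicates 4 and 5 being low at every time. The LPS difference at 24 h was -1.60 ± 0.39 in KO cells (adjusted p = 0.00506) and -1.45 ± 0.39 in control cells (adjusted p = 0.0154; 0.057 without control LPS 24 h replicate 4), where the fixed slide block turned the control value to 0.64. Npc1 was lower in KO cells with LPS for 6 h (-1.21 ± 0.41, adjusted p = 0.0297), a call lost in 6 of 10 fits without 1 array. In the main fit Psap, the precursor of the saposins that help glycolipid digestion, was not called in any comparison, nor was any lipid gene for KO against control.

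The transcription factors Tfeb and Tfec were not called in any comparison of the main fit. The KO minus control difference was 0.26 ± 0.15, 0.10 ± 0.15 and 0.17 ± 0.15 for Tfeb and 0.41 ± 0.39, 0.29 ± 0.39 and 0.70 ± 0.39 for Tfec at 0, 6 and 24 h. Tfec levels ran over 4.91 to 5.67 in KO and 4.30 to 5.60 in control cells without LPS, and the 2 highest arrays of each of these groups were replicates 4 and 5.

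**Figure D4:**
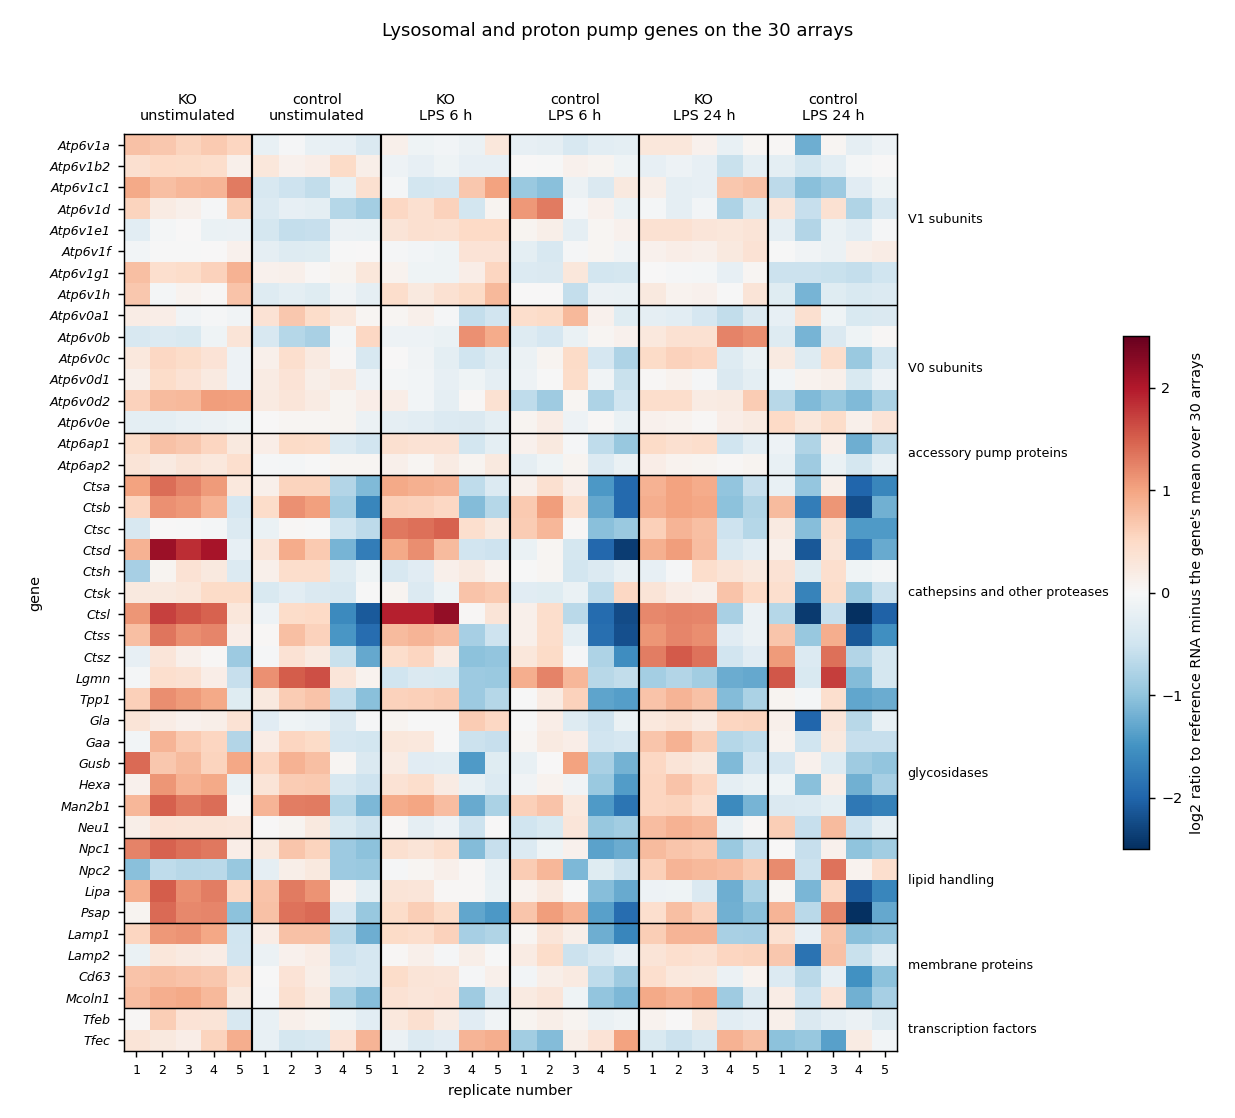
Level of each of the 43 genes (rows, in class order) on each of the 30 arrays (columns, by group and replicate number), as log2 ratio minus the gene's mean over all arrays, red above it and blue below. Proteases, glycosidases and lipid genes are blue in replicates 4 and 5 of most groups, and control LPS 24 h replicate 2 is blue in many rows.

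The spread between replicates differed by class. The SD within a group, with the medians given above, ran up to 0.47 in pump genes and 1.21 in the others. The mean of replicates 4 and 5 was below that of replicates 1 to 3 in all 6 groups for 21 of the other 27 genes and above it in all 6 for 1, Tfec. Of the pump genes 5 were lower and 4 higher in all 6 groups. The difference between the replicate sets, averaged over the groups, had a median of -0.0035 in pump genes, -1.35 in the proteases, -0.76 in the glycosidases, -1.01 in the lipid genes and -0.78 in the membrane proteins. Psap had the lowest of these values, -1.87, and Tfec the highest, 1.04. Over all genes, KO unstimulated replicate 4 was nearest replicate 3 of its group and replicate 1 nearest replicate 5, whereas in the other 5 groups replicates 4 and 5 were nearest each other. The sources used here name nothing that sets replicates 4 and 5 apart.

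Within replicates 1 to 3 the median KO minus control difference of the 43 genes was 0.28, 0.17 and 0.62 at 0, 6 and 24 h, and within replicates 4 and 5 it was 0.69, 0.44 and 0.45. 32, 29 and 34 genes were above 0 in both sets at 0, 6 and 24 h. For LPS at 6 h the medians within the sets were -0.33 and -0.49 in KO cells and -0.16 and -0.33 in control cells, and at 24 h -0.18 and -0.57 in KO cells and -0.36 and -0.31 in control cells. These sets were made after the values were seen and are given without a test.

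**Figure D5:**
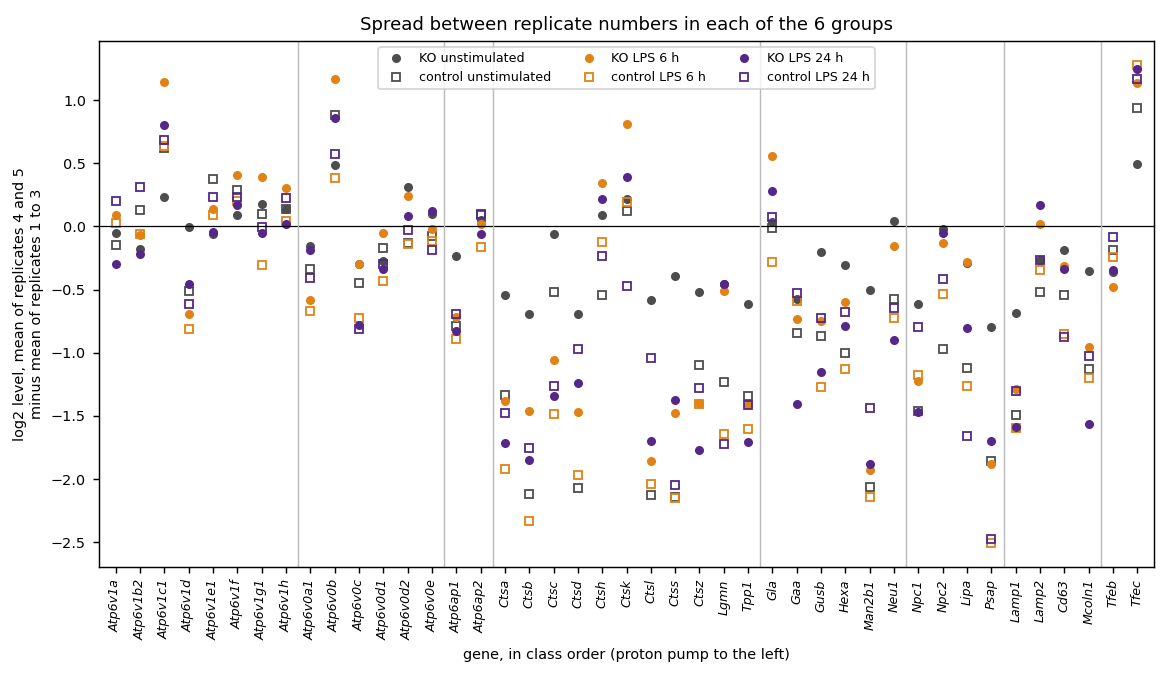
Mean level of replicates 4 and 5 minus mean level of replicates 1 to 3 (log2, y axis) for each of the 43 genes (x axis, in class order) in each of the 6 groups, KO as filled circles and control as open squares. Pump genes lie on both sides of 0, with 5 below it and 4 above it in all 6 groups. Most other genes lie below 0 in all 6 groups.

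Other lysosomal genes, 74 tested of 90 listed, were also called more often higher than lower in KO cells. In KO against control cells 14 were higher and 5 lower without LPS (6.96% and 7.13% of all genes), 9 and 3 at 6 h (6.22% and 5.87%), and 12 and 4 at 24 h (6.98% and 8.44%). Without LPS the changes of largest size were those of the sorting receptor Sort1 (1.90 ± 0.60), the cathepsin inhibitors Cst7 (-1.69 ± 0.41) and Cst3 (-1.28 ± 0.25), and the serpin Serpinb6a (1.27 ± 0.28), in log2 differences ± SE. With 6 h of LPS they were those of Sgsh (-1.17 ± 0.27), a sulfatase, Fnip1 (1.10 ± 0.13), a partner of folliculin, the protease Ctso (1.08 ± 0.19) and the cystine transporter Ctns (0.99 ± 0.29). At 24 h they were those of Ctso (1.30 ± 0.19), Sgsh (-1.29 ± 0.27), the channel Mcoln2 (1.17 ± 0.25) and Cst3 (-1.16 ± 0.25). With LPS for 6 h 6 were higher and 19 lower in KO cells (14.2% and 12.4% of all genes) and 3 higher and 9 lower in control cells (7.15% and 4.51%). At 24 h 8 were higher and 16 lower in KO cells (10.2% and 7.84%) and 2 and 5 in control cells (7.23% and 5.07%). Cst7 rose by 2.75 ± 0.41 in KO and 1.76 ± 0.41 in control cells at 6 h, and Sort1 fell in KO cells (-2.20 ± 0.60), as did the channel Tpcn1 (-1.68 ± 0.37) and the mannosidase Manba (-1.47 ± 0.20). The difference between the responses was called for 1 gene at each time, the channel Mcoln3 at 6 h (-0.84 ± 0.19) and the galactosylceramidase Galc at 24 h (-1.01 ± 0.21), both lower in KO cells. Of the 5 other pump subunits tested, Atp6v0a2 was lower in KO cells without LPS (-0.72 ± 0.14) and Atp6v1g2 at 6 h (-0.32 ± 0.095), named after their values were seen.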

How the data were processed

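RNA of CD11c+ bone marrow-derived dendritic cells was measured on 30 Agilent 2-colour arrays, 5 in each of 6 groups. The deposited scanner files hold spot intensity in Cy5 (sample) and Cy3 (universal mouse reference) and, per the file headers, came from version 10.7.3.1 of Feature Extraction. The deposited log10 ratios in these files had been corrected for background and dye by that software. The authors' deposited table of log2 ratios (the submitters' processing notes name limma, with no role) was an alternative and correlated with the ratios computed here at 0.999885 or more on each array. Dyes were not swapped, so dye bias of a gene is shared by all groups.

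Median intensities were corrected with normexp (offset 50) and ratios normalized by loess within arrays (limma 3.58.1, R 4.3.3). Control spots (1639) were left out. The accession of each probe was looked up, without its version, among the transcripts of RefSeq's gene table (GRCm38.p6), which named 22951 of 41174 probes; the others were not used. A probe was kept where some group had it well above background in the sample channel on each of its 5 arrays, with the probe of highest mean Cy5 signal standing for its gene, which left 11253 genes. 1 model with a mean per group (24 residual degrees of freedom) gave all 9 comparisons, with Benjamini-Hochberg adjustment over all genes and a threshold of 0.05. Errors after ± are SEs of the model for differences. The 60 pairs of arrays within a group differed, none holding identical values. The script was tested on simulated data with independent noise on each array. That test did not cover variation shared by slide or replicate number.

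Values on every array are given for genes called with non-overlapping groups, up to 3 rises and 3 falls of largest size a comparison, other called genes with their difference, and at most 4 genes of the other lysosomal lists a comparison. The members and lists, markers included, were chosen with earlier results of these data known. Alternatives covered background, normalization, filter, probe choice, slide, replicate number, the later slide and leaving out each array. Promoters came from RefSeq tables.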

Additional observations from a re-analysis of the deposited data

Results flagged for a closer look

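Among the 16 genes given array by array, the highest or lowest array stood far from the other 4 of its group in 8 of 96 sets. The measure was Dixon's ratio, the gap to the next array over the range of the group, which flags about 1 in 20 independent sets by chance. These sets shared arrays and their genes were chosen from these values, so that rate is no test of the count. 6 of the 8 were the control arrays of the later slide. Control LPS 6 h replicate 3 had a level of 1.31 for Atp6v1a, 1.56 for Atp6v1e1 and 0.57 for Atp6v1h, each below the other 4 arrays, and 0.99 for Atp6v1g1, above the other 4. Control LPS 24 h replicate 2 had 0.49 for Atp6v1a and 0.017 for Atp6v1h, both below the other 4. Off that slide, KO LPS 24 h replicate 4 had 1.50 for Atp6v1b2 and KO unstimulated replicate 5 had 0.67 for Cd63, each the lowest of its group.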

How the results depend on the processing

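The median difference of the 43 genes kept its sign in the 7 comparisons of groups under each alternative other than the slide as a fixed block, in which genotypes are compared through slides that share no treatment and which reversed it for KO minus control at 24 h (-1.06) and for LPS in control cells at 6 h (0.30) and 24 h (0.63). Of the 53 calls, 52 were kept with the authors' log2 ratios, 48 without the filter, 48 with the mean of a gene's probes, 43 with Agilent's log ratios, 43 with the slide as a random block (correlation 0.103), 40 with local backgrounds as scanned, 38 with Cy5 alone, 35 with only the compared arrays in the fit, 29 with median centring and 21 with the fixed slide block; the cause was not tested. Leaving out 1 array at a time lost 99 of 530. Counts of called genes are given next, for KO minus control at 0, 6 and 24 h against 8, 6 and 10, for LPS at 6 and 24 h in KO cells against 9 and 9, and in control cells against 4 and 7.
With local backgrounds as scanned, 3 were called for KO at 6 h, and 2 and 3 for LPS in control cells. Agilent's ratios gave 2 for LPS in control cells at 6 h. Median centring gave 5, 3 and 6 for KO and 2 and 3 for LPS in control cells. Cy5 alone gave 3 for KO at 6 h and 16 for LPS in KO cells at 6 h. Only the compared arrays gave 13 and 1 for KO at 0 and 6 h, 16 and 16 for LPS in KO cells, 0 and 2 in control cells, and 1 for the difference of responses at 24 h. Without the later slide 7 were called for LPS in control cells at 6 h and 1 for each difference of responses. The fixed slide block gave 24 for KO at 0 h and 24 at 24 h, 1 and 30 for LPS in KO cells, 9 and 12 in control cells, and 27 for the difference of responses at 24 h.
Deviations from the group means were correlated between arrays of different groups. Same-numbered arrays had a median correlation of 0.55 (-0.34 to 0.87), above 0.1 in 60 of 75 pairs. Arrays of different numbers had a median of -0.17 (-0.86 to 0.80), above 0.1 in 108 of 300 pairs. Samples thus shared variation by replicate number, which the main fit left out. The replicate block gave 20, 18 and 23 for KO, 21 and 23 for LPS in KO cells, 15 in control cells at 24 h and 2 for the difference of responses at 24 h, and all 53 calls were kept under it. Of its rises for KO over the 3 treatments, 25 of 54 were of pump genes, against 17 of 23 without the block.
Without 1 array, counts ran over 4 to 8 (lowest without KO unstimulated replicate 1), 4 to 6 and 9 to 14 for KO, 6 to 8 and 6 to 10 for LPS in KO cells, 2 to 4 and 5 to 9 in control cells, and 0 to 0 and 0 to 1 for the differences of responses. The count for LPS in KO cells at 24 h was 6 without KO LPS 24 h replicate 4, and that in control cells at 6 h was 2 without control unstimulated replicate 2.
Some called differences turned sign. With Cy5 alone, Atp6v0e for LPS at 24 h in KO cells was -0.028. With the fixed slide block, KO minus control was -0.057 for Atp6ap2 and -1.03 for Atp6v1c1 without LPS, and -0.46 for Cd63 and -2.74 for Ctsl at 24 h. Under it LPS at 24 h gave 0.33 for Atp6v0d2, -0.048 for Atp6v0e and -1.24 for Npc2 in KO cells, and 0.40 for Cd63 and 0.64 for Lipa in control cells.
Scaling also moved the share of all calls that were higher. For KO it was 49.4% and 51.4% at 0 and 6 h, but 37.2% and 40.7% with median centring. For LPS in KO cells it was 53.5% and 56.6% at 6 and 24 h, but 42.1% at 6 h with Agilent's ratios, 36.9% and 43.8% with Cy5 alone and 67.9% at 24 h with median centring. In control cells it was 61.3% and 58.8%, but 48.4% and 48.3% with Agilent's ratios, 46.4% and 47.1% with Cy5 alone and 75.0% at 6 h with median centring. For the differences of responses it was 67.3% and 48.5%, but 77.8% and 60.7% with Agilent's ratios and 87.8% and 75.0% with median centring. The median of all genes moved past 0.1 to -0.11 and -0.10 with median centring (KO at 6 h, LPS in KO cells at 6 h) and to 0.11 with the fixed slide block (LPS in KO cells and the difference of responses, both at 24 h). Every member was above background on every array.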
